A study of Mus musculus with 28 samples.

Results

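The smooth muscle contractile genes are 10 genes whose products form or switch on the contractile machinery of visceral smooth muscle: Acta2, Actg2, Myh11, Tagln, Cnn1, Lmod1, Smtn, Des, Synm and Myocd. They were chosen by name, and each is represented by its probe set with the highest mean level. All 10 passed the filter on low values and are 10 of 13613 genes tested, and 16 probe sets carry their symbols. RNA was measured on 28 Affymetrix mouse expression arrays from Balb/c embryos labelled p63 knockout (KO) or wild type (WT). Bladder (BL) was taken at embryonic day 15, 18 and 19 (E15, E18 and E19). Both parts of the stomach, proximal (PS) and distal (DS), and both intestines, small (SI) and large (LI), were taken at E18. Each genotype, organ and day has 2 arrays, which gives 14 groups. The sources used here give neither the KO allele nor the number of embryos, and do not say whether the 2 arrays of a group come from separate embryos, so p-values measure only the spread between these samples, which may be technical. Whole organs are mixtures, and fewer smooth muscle cells and less RNA per cell cannot be told apart.

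Visceral smooth muscle contracts when myosin, built on the heavy chain Myh11, pulls on filaments of the smooth muscle actins Acta2 and Actg2. The calponin Cnn1, transgelin (Tagln), smoothelin (Smtn) and leiomodin (Lmod1) bind those actin filaments, and desmin (Des) and synemin (Synm) are intermediate filament proteins that tie the contractile units to each other and to the cell surface. Myocardin (Myocd) is a coactivator of the transcription factor SRF, which binds a DNA element called the CArG box near many of these genes. p63, encoded by Trp63, is a transcription factor of basal epithelial cells, the deepest layer of the epithelium in bladder and proximal stomach.

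The start regions of the genes are shown because SRF and Myocd act through the CArG box near many of these genes. RefSeq start windows of build GRCm38.p6 hold 6 of the 10 members (Acta2, Cnn1, Des, Lmod1, Smtn and Synm). The exact box (CC, then 6 bases that are each A or T, then GG, which reads the same on both strands) was in 0 of the 6 windows of 300 bases, against 1.63% of all 32851 windows. With at most 1 G or C allowed among the 6 central bases it was in 2 of the 6, against 9.98% of all windows. Both are printed as the 250 bases before the start, 5′ to 3′ on the minus strand, with the matches in capitals. The Acta2 stretch is chr19:34255374-34255623 and holds matches that begin 84 and 34 bases upstream of the start; these letters are those of the elements known in rodent Acta2 as CArG B and CArG A. The annotated Acta2 gene runs to base 34255585, so most of that stretch lies inside its widest span. The Synm stretch is chr7:67759743-67759992, with 1 match that begins 239 bases upstream. A match is a description of the letters, not of binding.
Acta2: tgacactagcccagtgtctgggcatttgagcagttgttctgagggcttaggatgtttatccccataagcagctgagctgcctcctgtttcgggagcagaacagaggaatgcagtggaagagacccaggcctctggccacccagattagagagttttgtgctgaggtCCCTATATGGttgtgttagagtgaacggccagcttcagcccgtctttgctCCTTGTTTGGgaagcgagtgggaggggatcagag
Synm: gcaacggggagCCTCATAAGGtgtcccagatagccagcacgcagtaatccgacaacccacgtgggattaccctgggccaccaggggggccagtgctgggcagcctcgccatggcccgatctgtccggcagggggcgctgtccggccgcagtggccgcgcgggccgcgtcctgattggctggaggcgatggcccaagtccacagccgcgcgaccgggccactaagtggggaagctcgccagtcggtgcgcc

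Values are the authors' log2 signals as deposited, differences are on the log2 scale, and SE is limma's standard error. Called means an adjusted p under 0.05 (limma, Benjamini-Hochberg over 13613 genes). The 2 arrays of a group correlated at 0.980 to 0.994 across genes. The 4 bladder E19 arrays stood apart from the rest, with array medians of 7.48 to 7.53, against 7.73 to 7.86 on the other 24 arrays. The levels of urothelial, squamous, gastric and intestinal epithelial genes mostly fitted the labelled organs in WT. Large intestine had only 1 of its 5 listed genes tested, which was high in bladder too. The small intestine gene Rbp2 was also high in WT proximal (13.63) and distal stomach (12.34), against 14.87 in small intestine. KO proximal stomach kept the squamous gene Krt13 (14.61, WT 14.64). It also had Upk2 at 14.05 (WT 8.74), Tff2 at 12.50 (WT 7.19) and Vil1 at 11.19 (WT 6.31), but Upk3a at 6.71 (WT 6.98). The part of this in the members' values was not tested. Trp63 was not lower throughout the KO groups. In proximal stomach 2 of its 3 tested probe sets were higher in KO than in WT (differences of 0.49 to 1.63), and at bladder E19 1 of 3 was lower (differences of -2.44 to -0.43). Where its probes lie relative to the deletion is not given in the sources used here, so these levels check no label, and KO and WT below mean the libraries labelled so. Krt5, a keratin of basal cells, differed by -5.80 in proximal stomach (SE 0.19, adjusted p = 1.41e-15) and by -4.83 in bladder at E18 (adjusted p = 1.22e-12).

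Some members were among the most strongly expressed genes of these organs, and others were not. By mean level over the 28 arrays Acta2 and Actg2 stood at the 99.7th percentile of the genes tested, Tagln at the 99.6th and Myh11 at the 98.9th. Cnn1 stood at the 91.9th, Myocd at the 89.6th and Des at the 84.4th. Smtn was at the 73.6th, Lmod1 at the 61.3rd and Synm, the lowest, at the 55.6th. These positions compare probe sets of different genes and are a rough guide. The range of the 14 group means was 1.17 for Actg2, 1.31 for Tagln and 1.40 for Acta2, against 5.78 for Synm. The highest member value, 15.20 for Acta2, lay close to the highest deposited value of any probe set, 15.40.

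Bladder muscle genes rose steeply between E15 and E18 in both genotypes. Of the 10 members, 8 were higher at E18 and 0 lower in KO bladder, where 15.7% of all genes were higher and 31.0% lower, and 8 were higher and 0 lower in WT bladder, where 17.1% were higher and 27.9% lower. The members' median difference was 1.08 in KO bladder (all genes -0.13) and 1.18 in WT bladder (all genes -0.10). Synm and Des had the widest changes, Acta2 and Myocd did not pass by their main probe sets, and the plot of the 3 bladder stages shows each array.

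Synm had the widest change. In KO bladder it had 7.88 and 8.83 at E15, 12.37 and 12.78 at E18, and 13.06 and 13.06 at E19. WT bladder had 6.46 and 8.10 at E15, 12.82 and 12.48 at E18, and 12.81 and 12.93 at E19. The E15 arrays of both genotypes lay below every later array, and the 2 WT arrays at E15 were far apart. The first of these was below its array's median of 7.84, so the size of the WT change is uncertain. The E18 minus E15 difference was 4.23 in KO bladder (SE 0.43, adjusted p = 5.27e-07, 18.7-fold) and 5.37 in WT bladder (SE 0.43, adjusted p = 1.84e-08, 41.3-fold). A second Synm probe set gave 4.77 in KO and 5.74 in WT bladder.

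Des, the main intermediate filament protein of muscle, followed the same course. It had 10.69 and 10.97 at E15, 13.58 and 13.70 at E18, and 13.43 and 13.51 at E19 in KO bladder. WT bladder had 9.49 and 10.60 at E15, 13.75 and 13.53 at E18, and 13.47 and 13.35 at E19. No E15 array reached the later ones, and the E18 and E19 arrays lay close together. The rise by E18 was 2.81 in KO bladder (SE 0.28, adjusted p = 4.32e-07, 7.01-fold) and 3.60 in WT bladder (SE 0.28, adjusted p = 1.40e-08, 12.1-fold).

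The actin-binding proteins rose by smaller amounts. Cnn1 had 12.17 and 12.15 at E15, 13.70 and 13.90 at E18, and 14.42 and 14.33 at E19 in KO bladder, and in WT bladder 11.36 and 12.13 at E15, 13.84 and 13.53 at E18, and 14.31 and 14.21 at E19. Its stages did not overlap in either genotype, and it rose by 1.64 in KO (SE 0.23, adjusted p = 1.22e-05) and 1.94 in WT bladder (SE 0.23, adjusted p = 2.18e-06) between E15 and E18. Lmod1, which nucleates actin filaments, had 10.95 and 10.80 at E15 and 12.18 and 12.45 at E18 in KO bladder, and 10.11 and 10.90 at E15 and 12.07 and 12.01 at E18 in WT bladder. It was higher at E18 by 1.44 in KO (adjusted p = 1.85e-04) and 1.53 in WT bladder (adjusted p = 1.21e-04). Smtn, a protein found in contractile smooth muscle, was higher by 1.34 in KO (adjusted p = 2.58e-04) and 1.64 in WT bladder (adjusted p = 4.56e-05). For Tagln the increase was 0.82 in KO (adjusted p = 1.17e-05) and 0.83 in WT bladder (adjusted p = 1.33e-05), from a level that was already near 14 at E15.

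The motor itself moved little by its strongest probe sets. Myh11 had 13.94 and 13.82 at E15, 14.36 and 14.53 at E18, and 14.49 and 14.50 at E19 in KO bladder. WT bladder had 13.55 and 13.94 at E15, 14.51 and 14.46 at E18, and 14.52 and 14.51 at E19. The step from E15 to E18 was 0.56 in KO (SE 0.16, adjusted p = 8.17e-03) and 0.74 in WT bladder (SE 0.16, adjusted p = 1.18e-03), and it was called in KO neither without the second KO E15 array nor without the second KO E18 array. A dimmer Myh11 probe set gave 1.42 in KO and 1.35 in WT bladder. Actg2, the enteric actin, was higher at E18 by 0.52 in KO (adjusted p = 2.34e-04) and 0.67 in WT bladder (adjusted p = 2.35e-05), and its KO call was lost with an RNA integrity covariate (adjusted p = 0.0563).

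Acta2 did not pass the test between E15 and E18 by its main probe set. It had 14.36 and 14.44 at E15, 14.51 and 14.51 at E18, and 15.20 and 15.20 at E19 in KO bladder. In WT bladder it had 14.45 and 14.51 at E15, 14.59 and 14.56 at E18, and 15.14 and 15.19 at E19. The E18 minus E15 difference was 0.11 in KO (adjusted p = 0.292) and 0.09 in WT bladder (adjusted p = 0.394). The signal was already close to the top of the scale, and the part of this was not tested. That probe set is of the kind that may share probes with transcripts of other genes, and smooth muscle actins are near-identical to other actins, so its level is uncertain. The 2 other Acta2 probe sets, both designed on expressed sequence tags, disagreed with it in size. One differed by 4.07 in KO and 2.80 in WT bladder. The other differed by 0.54 in KO (adjusted p = 0.216) and 0.53 in WT (adjusted p = 0.231). With the mean of the probe sets Acta2 was called, at 1.57 in KO and 1.14 in WT bladder.

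Myocd, the coactivator, had another course. It had 12.73 and 13.03 at E15, 13.16 and 13.19 at E18, and 11.65 and 11.64 at E19 in KO bladder. In WT bladder it had 13.33 and 13.36 at E15, 13.15 and 13.14 at E18, and 12.19 and 12.59 at E19. The E19 arrays lay below all earlier ones in both genotypes. From E15 to E18 its difference was 0.29 in KO (adjusted p = 0.176) and -0.21 in WT bladder (adjusted p = 0.339).

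RNA integrity differed between the days. The 3′ minus 5′ signal of the beta-actin control probe sets, a sign of integrity, was 0.51 on both E18 arrays against 1.12 to 1.33 at E15 in KO bladder, and 0.56 to 0.57 at E18 against 0.69 to 0.78 at E15 in WT bladder. With it as a covariate the KO differences between E18 and E15 were 3.04 for Lmod1, 2.66 for Smtn, 2.75 for Cnn1, 1.51 for Myh11 and 0.87 for Actg2, each over 1.5 times the value without it, and all but that of Actg2 were called. Beyond this its part was not tested.

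**Figure D1:**
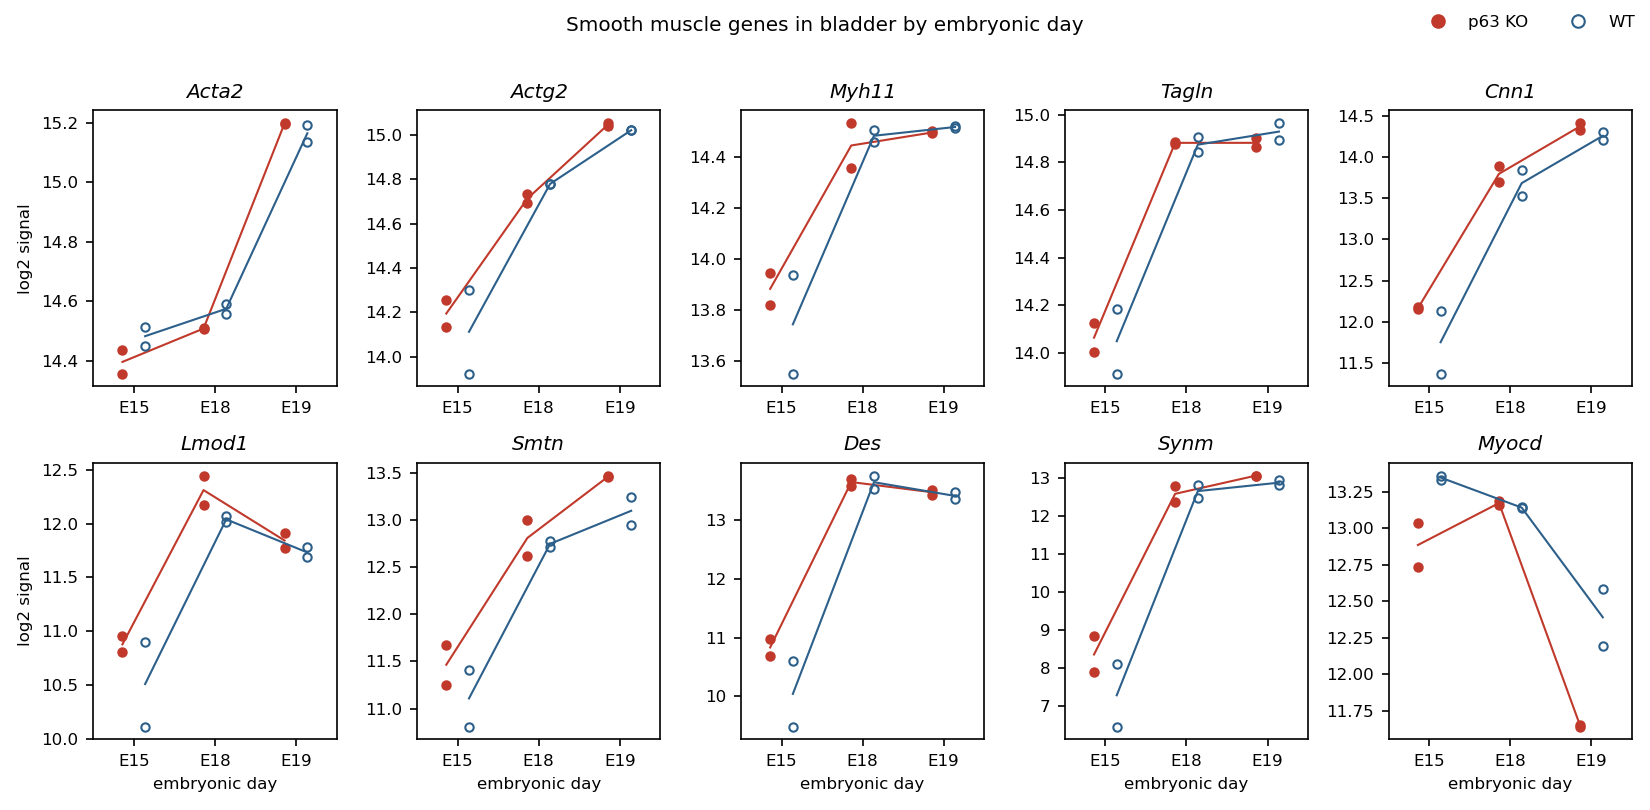
Log2 signal (vertical axis, with its own range in each panel) of the 10 genes in bladder by embryonic day (horizontal axis), with 1 point per array, filled red for p63 KO and open blue for WT, and lines through the group means of 2 arrays. Synm and Des climb between E15 and E18, Acta2 is highest at E19, and Myocd is lowest at E19.

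Whether KO bladder matured differently was asked of the difference between the genotypes' changes. Between E15 and E18 0 of 10 members differed (limma, adjusted p under 0.05; 0 also at an unadjusted p under 0.05), where 0.610% of all genes did. The change in Synm differed by -1.14 between KO and WT (95% interval -2.41 to 0.12, adjusted p = 0.520), and Des differed by -0.79 (-1.62 to 0.04, adjusted p = 0.483). Myocd differed by 0.49 (-0.01 to 0.996, adjusted p = 0.460). The intervals of the other 7 lay between -1.04 and 0.67, so differences of that size were not excluded by 2 arrays a group.

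Between E18 and E19 the actins and Cnn1 rose further and Myocd fell. In KO bladder 4 members were higher and 1 lower, where 28.3% of all genes were higher and 32.2% lower, and in WT bladder 3 were higher and 1 lower, where 27.1% were higher and 36.0% lower. Counts of this size lie close to those of all genes. Acta2 was higher at E19 by 0.69 in KO (SE 0.08, adjusted p = 6.27e-07) and 0.59 in WT bladder (SE 0.08, adjusted p = 4.34e-06). Its other 2 probe sets gave 2.30 and 0.22 (adjusted p = 0.604) in KO, and 2.82 and -0.15 (adjusted p = 0.729) in WT bladder. Cnn1 was higher by 0.58 in KO (adjusted p = 0.0338) and 0.58 in WT bladder (adjusted p = 0.0330), and Actg2 by 0.34 in KO (adjusted p = 5.32e-03) and 0.24 in WT bladder (adjusted p = 0.0348). Smtn, at 13.45 and 13.47 at E19 against 12.62 and 13.00 at E18 in KO bladder, was higher by 0.65 (adjusted p = 0.0317), and in WT bladder it differed by 0.35 (adjusted p = 0.238). Of 13 alternatives, those that ended a call numbered 6 for Cnn1 in KO, 5 for Cnn1 in WT, 6 for Actg2 in WT and 4 for Smtn in KO bladder. Leaving out any one of the 4 arrays compared ended the calls of Cnn1 in KO and Actg2 in WT. That of Cnn1 in WT ended without the second E18 array or either E19 array, and that of Smtn in KO without the first E18 array or either E19 array. The calls of Acta2 and Myocd in both genotypes and of Actg2 in KO held in all 13.

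Myocd fell by 1.52 in KO (SE 0.17, adjusted p = 1.75e-07) and by 0.75 in WT bladder (SE 0.17, adjusted p = 6.84e-04) between E18 and E19, and its second probe set fell by 2.15 in KO and by 1.06 in WT bladder. The difference of -0.77 between the genotypes' changes did not pass (adjusted p = 0.0684), and of the 10 members 0 passed there (limma; 1 at an unadjusted p under 0.05), where 5.27% of all genes did. The difference of Myocd did pass with array weights, with the mean of its probe sets, in a fit of only the arrays compared and without the first WT E19 array. Day and the set of 4 E19 arrays cannot be told apart. Centring each array on its median moved the median of all genes between E18 and E19 to 0.30 in KO and 0.15 in WT bladder, against -0.01 in KO and -0.08 in WT as deposited, and the share of called genes that were higher to 67.1% in KO and 57.3% in WT bladder, against 46.8% in KO and 42.9% in WT as deposited. Between E15 and E19, 9 members were higher and Myocd was lower in KO bladder, where 68.7% of all genes were called, and likewise in WT bladder, where 72.0% were called. In that comparison the 2 genotypes' changes differed in 0 members (limma; 0 at an unadjusted p under 0.05), where 8.59% of all genes differed.

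Genes around the members were followed by 4 lists chosen by name. Between E15 and E18, 15.7% of all genes were higher and 31.0% lower in KO bladder. In WT bladder 17.1% were higher and 27.9% lower. Among 26 tested genes for attachment and filament proteins, 12 were higher and 1 lower at E18 than at E15 in KO bladder, and 17 were higher and 2 lower in WT bladder. Cav3, a caveolin, was higher by 3.04 in KO and 3.61 in WT bladder, and Csrp1, an actin-bundle protein of smooth muscle, by 1.45 in KO and 2.00 in WT bladder. The integrin Itga8 was lower, by -0.85 in KO and -1.39 in WT bladder. Among 21 tested genes of the contractile apparatus 6 were higher and 6 lower in KO bladder, and 6 were higher and 6 lower in WT bladder. These counts of lower genes lie close to the shares of all genes. Ppp1r14a, an inhibitor of the myosin phosphatase, was higher by 1.73 in KO and 1.58 in WT bladder, whereas the non-muscle myosin Myh10 was lower, by -0.83 in KO and -0.62 in WT bladder.

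Channels and receptors moved in both directions, with 5 of 15 higher and 1 lower in KO bladder and 5 higher and 3 lower in WT bladder. P2rx1, the ATP receptor through which nerves contract the bladder, had 7.32 and 7.32 at E15, 11.61 and 12.31 at E18, and 12.93 and 12.99 at E19 in KO bladder. WT bladder had 6.86 and 7.18 at E15, 12.27 and 11.85 at E18, and 12.73 and 12.44 at E19. It was higher at E18 by 4.64 in KO (adjusted p = 4.21e-11) and 5.04 in WT bladder (adjusted p = 1.27e-11), on the scale of the change in Synm. Of 30 regulators 1 was higher and 15 lower in KO bladder, and 2 were higher and 13 lower in WT bladder. Of all genes 15.7% were higher and 31.0% lower in KO bladder, and 17.1% higher and 27.9% lower in WT bladder. Gli1, a target of Hedgehog signalling, was lower by -2.14 in KO and -1.88 in WT bladder, and Tbx18, a mesenchymal T-box factor, by -0.80 in KO (adjusted p = 0.0485) and -1.88 in WT bladder. None of the genes named in these 4 lists for the change in WT bladder differed in it between the genotypes (limma, smallest adjusted p 0.366, for Tbx18).

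Some skeletal muscle genes were also higher in bladder at E18. Of 15 tested, 5 were higher and 0 lower at E18 than at E15 in KO bladder, where 15.7% of all genes were higher and 31.0% lower. In WT bladder 6 were higher and 0 lower, where 17.1% of all genes were higher and 27.9% lower. The list's mean log2 level was 8.05 and 9.49 at E15, 10.95 and 9.52 at E18, and 9.38 and 9.36 at E19 in KO bladder. In WT bladder it was 7.46 and 7.92 at E15, 9.36 and 9.28 at E18, and 9.12 and 9.19 at E19. Ckm, the muscle creatine kinase, had 11.82 and 12.46 at E18 against 5.84 and 6.86 at E15 in KO bladder, and 11.91 and 11.78 at E18 against 5.86 and 6.43 at E15 in WT bladder. Acta1 had 14.27 and 14.25 at E18 against 9.74 and 11.31 at E15 in KO bladder. In WT bladder it had 14.18 and 14.14 at E18 against 7.45 and 9.66 at E15. Tnnt3 had 13.22 and 13.52 at E18 against 8.61 and 9.92 at E15 in KO bladder. In WT bladder it had 13.75 and 13.47 at E18 against 8.47 and 8.96 at E15. Myog, which defines skeletal myoblasts, had 8.88 and 5.26 at E18 against 5.72 and 7.36 at E15 in KO bladder, and 4.93 and 4.81 at E18 against 5.67 and 5.68 at E15 in WT bladder. Skeletal muscle also expresses Des and Synm, and its part in their change was not tested.

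**Figure D2:**
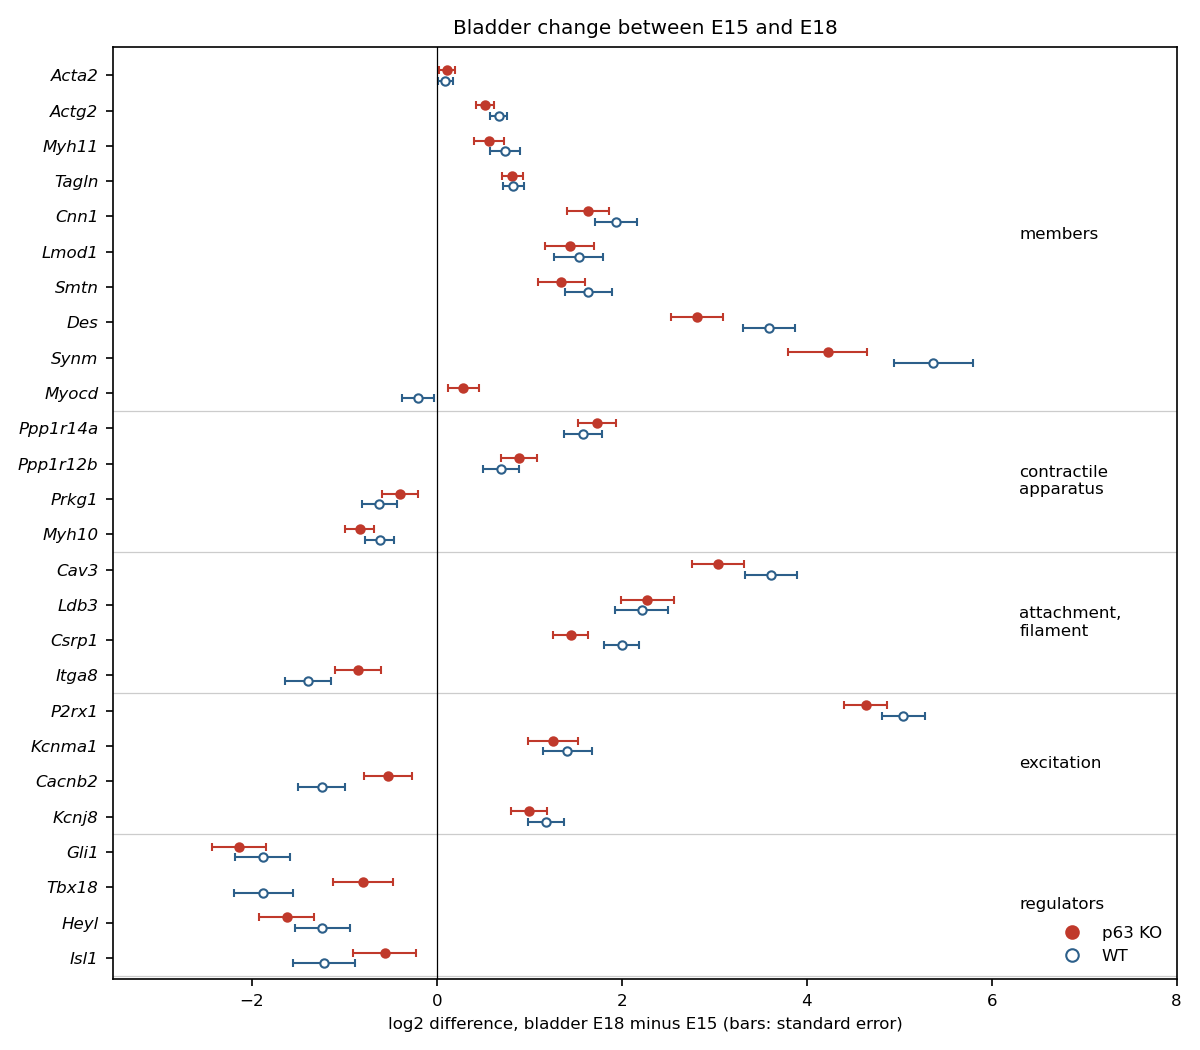
Change in bladder between E15 and E18 (horizontal axis, log2 difference, bars are limma's standard error) for the 10 members and the named genes of the 4 lists (rows), filled red for p63 KO and open blue for WT. Synm, Des, Cav3 and P2rx1 lie farthest right in both genotypes, and Gli1 and Tbx18 lie left of 0.

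At E18 bladder was the organ with the highest level of every member, in KO and in WT. In KO embryos bladder was above proximal stomach in 10 of 10 members (19.9% of all genes were higher in bladder), above distal stomach in 10 (22.1%), above small intestine in 10 (24.3%) and above large intestine in 8 (22.5%). In WT embryos all 10 members were called higher in bladder than in proximal stomach (24.3% of all genes), distal stomach (21.3%), small intestine (27.9%) and large intestine (18.6%). The median differences of the members in WT were 1.36, 1.93, 1.83 and 1.04 in that order of organs. The smallest gaps were those of the actins to large intestine: Acta2 differed by 0.21 in KO (adjusted p = 0.0527) and 0.34 in WT (adjusted p = 0.0031), and Actg2 by 0.19 in KO (adjusted p = 0.113) and 0.30 in WT (adjusted p = 0.0179). The WT call of Actg2 was lost after quantile normalization, without either bladder array and without the second large intestine array.

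Large intestine usually came next. It was the second organ for 9 members in KO and 7 in WT, and distal stomach was second for Synm in both. Distal stomach was lowest for 8 members in KO and 5 in WT, and small intestine for 1 in KO and 5 in WT. Neighbours in the order often could not be told apart: only 16 of 40 neighbouring pairs were called in KO and 16 of 40 in WT. Between distal stomach and small intestine 1 member was higher and 2 lower in KO (34.3% of all genes called) and 0 differed in WT (limma; 2 at an unadjusted p under 0.05; 38.2% of all genes called). The KO call of Lmod1 was lost in 9 of 14 alternatives. Among them were no filter, median centring, quantile normalization, and leaving out the first distal stomach array or either small intestine array. That of Synm was lost with the RNA integrity covariate and without any single array of either group. That of Des was lost without the first distal stomach array and without the second small intestine array. No member passed for a difference in KO minus WT value between these organs.

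Synm had an order of its own. In KO it had 12.37 and 12.78 in bladder, 8.70 and 8.06 in proximal stomach, 10.63 and 10.80 in distal stomach, 9.26 and 9.59 in small intestine and 9.24 and 9.34 in large intestine. In WT it had 12.82 and 12.48 in bladder, 10.22 and 9.41 in proximal stomach, 10.38 and 10.93 in distal stomach, 9.64 and 9.57 in small intestine and 10.31 and 8.99 in large intestine. Distal stomach was second in both, below bladder by 1.87 in KO (adjusted p = 1.29e-03) and 2.00 in WT (adjusted p = 7.09e-04). In KO distal stomach was above small intestine, its next neighbour, by 1.29 (adjusted p = 0.0245). That call was lost with the RNA integrity covariate and without any single array of either group. In WT distal stomach did not differ from proximal stomach beyond the spread (0.83, adjusted p = 0.134).

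Myh11 showed the more usual order. In KO it had 14.36 and 14.53 in bladder, 13.32 and 12.90 in proximal stomach, 12.71 and 13.30 in distal stomach, 12.94 and 13.17 in small intestine and 13.70 and 13.78 in large intestine. In WT it had 14.51 and 14.46 in bladder, 13.86 and 13.46 in proximal stomach, 12.92 and 13.07 in distal stomach, 12.91 and 12.89 in small intestine and 13.79 and 13.59 in large intestine. In KO large intestine was above proximal stomach by 0.63 (adjusted p = 4.17e-03), and in WT the same pair differed by 0.03 (adjusted p = 0.897). The KO minus WT value did not pass as different between these organs (-0.60 for proximal stomach minus large intestine, limma, adjusted p = 0.0709). The plot of the 5 organs shows proximal stomach beside large intestine in WT for Myh11, Lmod1 and Smtn.

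**Figure D3:**
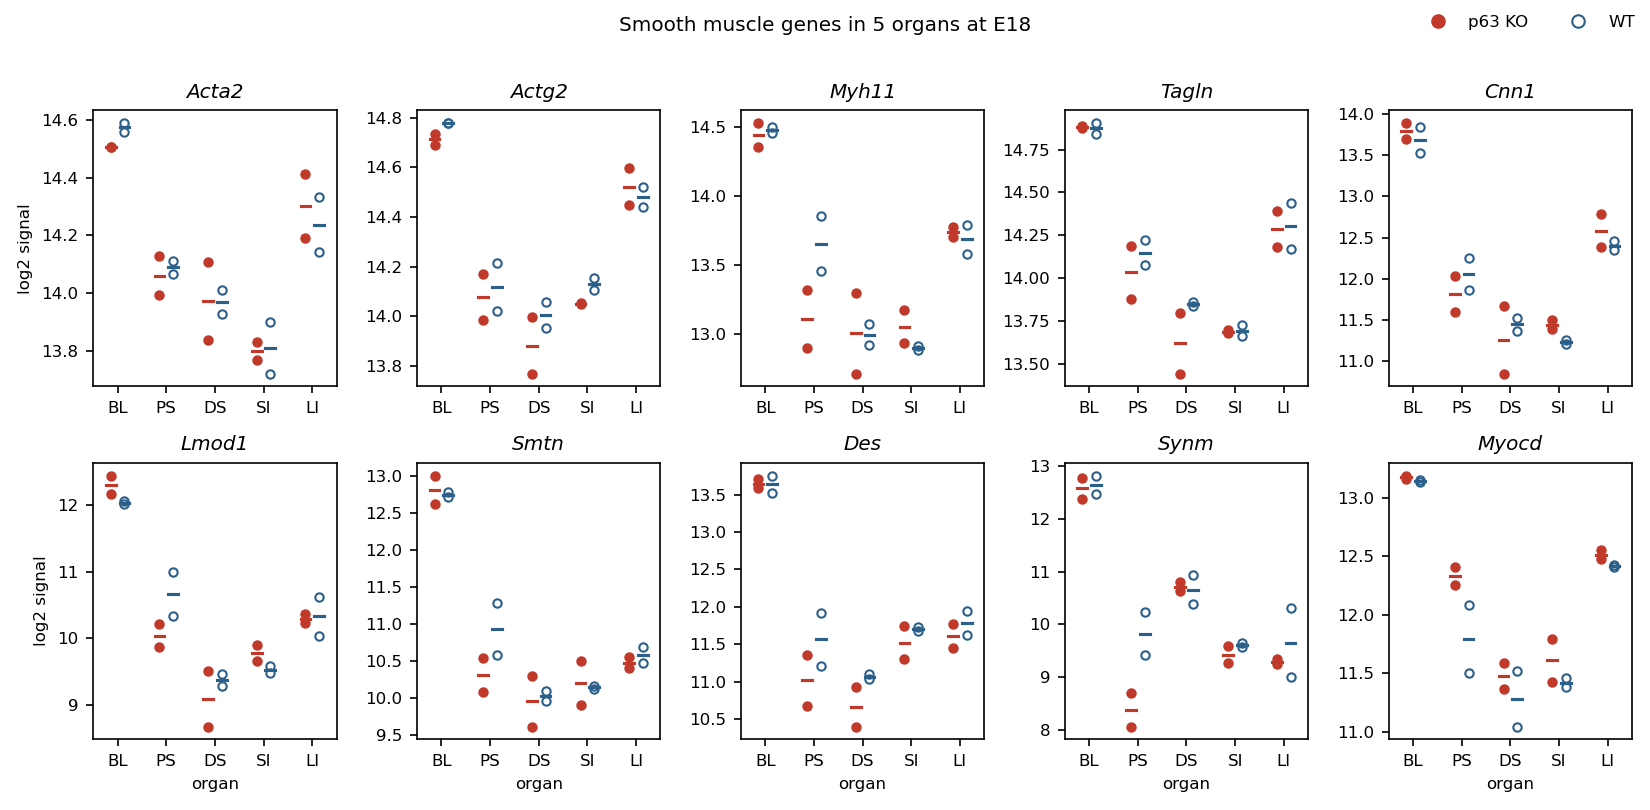
Log2 signal (vertical axis, with its own range in each panel) of the 10 genes at E18 by organ (horizontal axis: BL is bladder, PS and DS are proximal and distal stomach, SI and LI are small and large intestine), with 1 point per array, filled red for p63 KO and open blue for WT, and short lines at group means. Bladder is highest in every panel, and the KO points of proximal stomach lie below the WT points for Myh11 and Synm and above them for Myocd.

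Between KO and WT 4 of 70 comparisons (10 members in 7 organs and days) were called, where 9.01% of the same comparisons over all genes were. At bladder E18 0 of 10 members were called (limma; 0 at an unadjusted p under 0.05), where 3.24% of all genes were. At bladder E15 0 were called (limma; 3 at an unadjusted p under 0.05), where 7.04% of all genes were. Des differed there by 0.79 (95% interval 0.20 to 1.37, adjusted p = 0.0957), Synm by 1.07 (0.18 to 1.97, adjusted p = 0.140) and Myocd by -0.46 (-0.82 to -0.11, adjusted p = 0.107). The first WT array at E15 was below the second in 10 of 10 members, and without the second Des and Synm were called, so 1 library decides them. The Acta2 probe set that rose most between E15 and E18 differed by -0.87 at E15 (adjusted p = 0.0451). The actin 3′ minus 5′ signal was 1.12 to 1.33 on the KO arrays and 0.69 to 0.78 on the WT arrays at E15, and 3 of 15 skeletal muscle genes and 4 of 10 genes of neurons and glia were higher in KO, with 0 lower in either list. The part of these in the members' values was not tested.

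At bladder E19 Myocd was lower in KO. It had 11.65 and 11.64 in KO and 12.19 and 12.59 in WT bladder, groups that do not overlap, which held for 64.6% of all genes. The difference was -0.74 (SE 0.17, adjusted p = 4.38e-03), and a second probe set gave -0.85 (adjusted p = 0.0305). It was the only member called of 10, where 20.0% of all genes were called, and it was not called without the second WT array (adjusted p = 0.0766). Its mean difference over the 3 bladder days was -0.39 (SE 0.10, adjusted p = 8.10e-03), again as the only member of 10, where 21.0% of all genes were called. With the actin 3′ minus 5′ signal as a covariate that mean difference was not called (adjusted p = 0.059). At E19 2 of 7 genes of pericytes and vascular wall were lower in KO and 2 of 10 genes of neurons and glia were higher, and their part was not tested.

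In proximal stomach 1 member was higher and 2 lower in KO, where 18.1% of all genes were higher and 14.6% lower. The share of members called is close to that of all genes, 32.7%. Synm had 8.70 and 8.06 in KO and 10.22 and 9.41 in WT proximal stomach, a difference of -1.44 (SE 0.43, adjusted p = 0.0134), and a second Synm probe set gave -1.51 (adjusted p = 1.37e-03). Myh11 had 13.32 and 12.90 in KO and 13.86 and 13.46 in WT, a difference of -0.55 (SE 0.16, adjusted p = 0.0135). Myocd had 12.41 and 12.25 in KO and 11.50 and 12.08 in WT, a difference of 0.54 (SE 0.17, adjusted p = 0.0191). The groups do not overlap for any of these 3 genes, nor for 63.8% of all genes. The second probe sets of Myh11 (-0.05, adjusted p = 0.903) and Myocd (0.07, adjusted p = 0.879) did not pass.

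The remaining members of proximal stomach lay on the lower side in KO without passing. Lmod1 differed by -0.63 (adjusted p = 0.0725), Smtn by -0.62 (adjusted p = 0.0677), Des by -0.54 (adjusted p = 0.150) and Cnn1 by -0.24 (adjusted p = 0.448). Acta2, Actg2 and Tagln differed by -0.12 to -0.03 by their main probe sets, and another Acta2 probe set differed by -1.09 (adjusted p = 0.0243). The members' median was -0.39, against 0.02 for all genes. Single arrays decide these calls. Without the first WT array none of the 3 was called, and without the second WT array Des, Lmod1 and Smtn were called as well. Synm and Myh11 were not called without the second KO array, and Myocd was not called without the first KO array.

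Other measures moved with genotype in proximal stomach. The actin 3′ minus 5′ signal was 0.48 to 0.61 on the KO arrays and 0.88 to 0.97 on the WT arrays, and with it as a covariate none of the 3 genes was called there (Myh11 then differed by -0.04). Among all genes 18.1% were higher and 14.6% lower in KO proximal stomach. Of 15 skeletal muscle genes 5 were lower and 0 higher in KO, and the list's mean log2 level was 7.62 and 7.31 in KO and 9.01 and 8.26 in WT. Myod1, a defining gene of skeletal myoblasts, had 7.09 and 6.76 in KO and 8.72 and 8.64 in WT. Of 11 epithelial genes 7 were higher and 2 lower in KO, and of 12 fibroblast and matrix genes 0 were higher and 1 lower. The part of these tissues in the members' differences was not tested.

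In distal stomach, small intestine and large intestine 0 of 10 members were called in each (limma; 0 at an unadjusted p under 0.05 in each), where 0%, 0% and 0.0882% of all genes were called. The members' differences lay between -0.41 and 0.19 in distal stomach, between -0.18 and 0.25 in small intestine and between -0.36 and 0.18 in large intestine. For Acta2 and Actg2 the 95% intervals in the 3 organs lay between -0.33 and 0.24, and for Synm between -1.26 and 0.96. The difference in proximal stomach was not shown to exceed that in bladder at the same day: of the 10 members 0 passed that test (limma; 4 at an unadjusted p under 0.05), where 22.8% of all genes did.

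**Figure D4:**
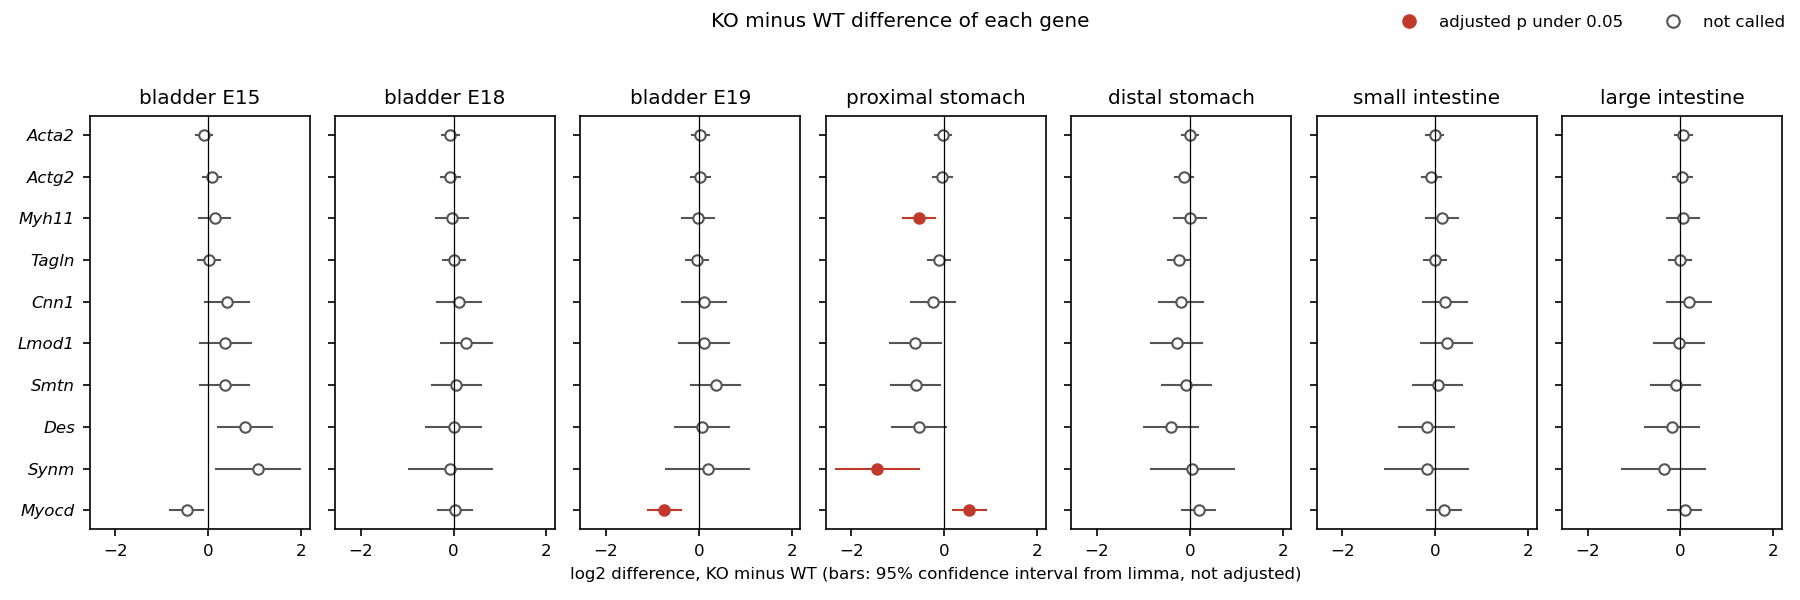
KO minus WT log2 difference (horizontal axis, bars are limma's 95% confidence interval, not adjusted) of the 10 genes (rows) in the 7 organs and days (panels), filled red where the adjusted p was under 0.05 and open where not. The 4 filled points are Myocd at bladder E19 and Myh11, Synm and Myocd in proximal stomach.

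Over the mean of the 3 bladder days, where 21.0% of all genes were called between KO and WT, 0 of 21 contractile apparatus genes were (limma). Of 26 attachment genes 1 was lower, dystrophin (Dmd, -0.49, adjusted p = 6.69e-03), and of 15 channels and receptors 1 was lower, the gap junction gene Gja1 (-0.40, adjusted p = 0.0155). Of 30 regulators 1 was higher and 7 were lower. Hhip, a Hedgehog-binding protein and target of the pathway, had 9.14 and 9.08 in KO and 11.06 and 11.13 in WT bladder at E19, and its mean difference over the 3 days was -1.35 (SE 0.10, adjusted p = 1.40e-08). The ligand Shh, made by the urothelium, differed by -1.01 (adjusted p = 0.0109), Gli1 by -0.75 (adjusted p = 3.92e-03) and Foxf2, a mesenchymal factor, by -0.70 (adjusted p = 1.68e-03). At E15 Foxf1 differed by -0.89 (adjusted p = 3.95e-03) and Srf, the partner of Myocd, by -0.42 (adjusted p = 0.0310).

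In proximal stomach 10 of 30 regulators were higher and 2 lower in KO, where 18.1% of all genes were higher and 14.6% lower. Those higher included the Hedgehog ligands Ihh (2.51, adjusted p = 3.04e-08) and Shh (1.44, adjusted p = 0.0202) and the transcription factor Isl1 (1.87, adjusted p = 1.94e-04). The pathway targets Gli1 (1.13, adjusted p = 5.19e-03) and Ptch1 (0.73, adjusted p = 7.62e-05) were higher too, whereas the target Hhip differed by 0.19 (adjusted p = 0.448). Of 21 contractile apparatus genes 3 were higher and 1 lower, and the largest was Smtnl2, a smoothelin-like protein, at -1.68 (adjusted p = 1.61e-07). Of 15 channels and receptors 2 were higher and 2 lower, with Kcnma1, a calcium-activated potassium channel, at 1.60 (adjusted p = 7.02e-05) and Ptger3, a prostaglandin receptor, at -1.68 (adjusted p = 1.58e-04). Of 26 attachment genes 1 was higher and 2 were lower, including Nexn, an actin-binding protein, at -0.69 (adjusted p = 1.96e-03).

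Across the 14 group means the members followed each other to different degrees. These correlations are descriptions over points that share arrays and organs. Each member was set against the mean of the other 9, and Pearson's r was 0.98 for Cnn1 and Tagln, 0.96 for Myh11 and Smtn, 0.95 for Lmod1, 0.94 for Actg2, 0.87 for Acta2, 0.84 for Des, 0.68 for Synm and 0.41 for Myocd. Des and Synm were alike (0.89), and Synm and Myocd were the least alike pair (-0.09). The genes outside the list that were most like the members' mean profile were Hspb6, a small heat shock protein of muscle (0.98), Eno3, the muscle enolase (0.97), Slc2a4, the insulin-responsive glucose transporter (0.97), Rasa3, a GTPase-activating protein (0.97), and Bves, a membrane protein of muscle (0.97). Of the skeletal muscle list, Acta1 (0.96) and Tnnc2 (0.96) were also close to that profile.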

How the data were processed

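Total RNA, extracted with Trizol and labelled with biotin by a 3′ IVT kit per the labels' protocols, was measured on 28 arrays. The authors deposited 1 log2 value per probe set and array, made with Affymetrix Expression Console and Partek per the submitters' processing notes. The sources used here do not give the background correction or normalization, and no further scaling was applied. Of 45101 probe sets, 64 controls were left out, and 34945 carry 1 gene symbol. A probe set was kept when above its array's median on at least 2 arrays, and a gene took its probe set with the highest mean, which left 13613 genes. One limma 3.58.1 fit in R 4.3.3 held 14 group means, with 14 residual and 6.19 prior degrees of freedom and a variance trend, and two-sided p-values were adjusted (Benjamini-Hochberg) within each of 41 contrasts. With 2 arrays against 2, the smallest p of an exact permutation test is 0.333. The number of arrays limits the precision. The pipeline was tested on simulated data. For WT bladder E18 minus E15 it recovered 22% of changes of 0.5 and 80% of changes of 1. For KO minus WT at bladder E18 it recovered 28% and 78%, so changes of 0.5 were mostly missed.

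The members and the lists were chosen with earlier results of these data known. All members are named, and of each wider list up to 4 called genes with the largest change in a contrast, and the 5 genes most like the members' mean profile. Ptch1 and Hhip in proximal stomach are named besides, as are Acta1 and Tnnc2 for their likeness to that profile. Deposited fold changes were not used. Alternatives were the filter, centring, quantile normalization, the mean of probe sets, array weights, an RNA integrity covariate, only the arrays compared, a replicate block and leaving out each array. Chosen after seeing the data were a fit without the 4 bladder E19 arrays, each probe set on its own, and the differences between all pairs of organs and days.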

Additional observations from a re-analysis of the deposited data

Results flagged for a closer look

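The KO minus WT value of each of the 10 members was compared between 2 organs or days, over all 21 pairs. Of these tests (limma, adjusted over the genes of each pair) 13 passed. All but 3 involve proximal stomach, and those 3 involve Myocd at bladder E19. Among all genes 22.8% passed for proximal stomach against bladder E18, and 0.610% to 8.59% for the pairs of bladder days. In those pairs 0 members passed. The share of all genes in the other pairs is not given here, so the count of 13 has no background beside it. The arrays of a shared organ enter several of the 13 differences. At bladder E15 the actin 3′ minus 5′ signal was 1.12 to 1.33 on KO arrays and 0.69 to 0.78 on WT arrays. In proximal stomach it was 0.48 to 0.61 on KO and 0.88 to 0.97 on WT arrays. As a covariate that signal ended the KO against WT calls of members in proximal stomach. The first WT array at bladder E15 was below the second in 10 of 10 members. The part of RNA integrity and single arrays in these differences was not tested.

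For Synm the KO minus WT value was 1.07 at bladder E15 and -1.44 in proximal stomach, a difference of 2.51 (adjusted p = 0.00372), and that of bladder E19 minus proximal stomach was 1.63 (adjusted p = 0.0473). For Des it was 0.79 at bladder E15 and -0.54 in proximal stomach, a difference of 1.33 (adjusted p = 0.0151). For Myh11 bladder E15 minus proximal stomach gave 0.68 (adjusted p = 0.0297), and proximal stomach minus small intestine gave -0.70 (adjusted p = 0.0330). Lmod1 differed by 0.997 between bladder E15 and proximal stomach (adjusted p = 0.0470). Smtn differed by 0.98 for bladder E15 minus proximal stomach (adjusted p = 0.0449) and by 0.98 for bladder E19 minus proximal stomach (adjusted p = 0.0423).

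Myocd ran the opposite way. Its KO minus WT value was -0.46 at bladder E15, -0.74 at bladder E19 and 0.54 in proximal stomach, which gives -1.0 for bladder E15 minus proximal stomach (adjusted p = 0.00359) and -1.28 for bladder E19 minus proximal stomach (adjusted p = 3.93e-04). Bladder E19 differed also from distal stomach by -0.94 (adjusted p = 0.0220), from small intestine by -0.93 (adjusted p = 0.0258) and from large intestine by -0.83 (adjusted p = 0.0365).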

How the results depend on the processing

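No direction of a called member difference turned under the alternatives counted here. With each probe set on its own, an analysis chosen after seeing the data and made for KO against WT and between bladder days, 1 did: Acta2 in WT bladder for E19 minus E18, at -0.15 (adjusted p = 0.729) by another probe set, against 0.59. Of 185 called member differences, those lost numbered 1 without the filter, 3 after median centring, 3 after quantile normalization, 6 with the mean of probe sets, 7 in fits of only the arrays compared, 8 with array weights and 23 with the actin 3′ minus 5′ covariate. Leaving out single arrays lost 84 of 748 calls, in fits where the lone array is assumed to vary like the other groups. Of the 10 members called for E19 minus E18, the count of 5 in KO bladder became 8 with only the arrays compared (3 to 4 with an array left out), and the count of 4 in WT bladder became 7 with only the arrays compared and 2 with array weights (2 to 3 with an array left out). Calls of KO against WT over 7 organs and days went to 1 of 70 with the covariate, against 4 (1 to 7 with an array left out), and the bladder mean to 0, against 1 (1 to 3). Differences in maturation between the genotypes gave 1, against 0, with the mean of probe sets, only the arrays compared and array weights (0 to 1 with an array left out), and gut minus bladder gave 1, against 0, with only the arrays compared (0 to 3). Whether the replicate numbers pair the samples is not given in the sources used here. Between KO and WT of the same organ and day, the correlation of same-numbered deviations was -0.13 to 0.28, which cannot decide it. Pairing between organs was not tested. With the replicate number as a block 1 of 185 calls was lost and 0 were added, and the counts were 4 of 70 for KO against WT and 0 for maturation between the genotypes. Without the 4 bladder E19 arrays 3 of 154 calls were lost. Each group has only 2 arrays. Acta2, Actg2 and Tagln had signal near the top of the scale, and whether that limits their differences was not tested.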
